A study of Mus musculus with 16 samples.

Results

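Transcripts of 37 genes of autophagy, mitophagy and mitochondrial fusion and fission were followed across sorted blood stem and progenitor cells of the mouse. The genes were listed by name from general knowledge of the pathway, with earlier results of these data known. Each was read from its brightest probe set, the one with the highest mean of log2(intensity + 16) over the 16 arrays. Of the 37 genes, 35 were measured, among 18193 genes in all. No probe set carried the symbol Optn alone, and the probe sets of Bnip3l were annotated with a second gene, so Optn and Bnip3l were not analysed here. All 35 measured genes entered the tests, and 34 lay above background on all 16 arrays, where background is the 40th percentile of an array (an intensity of 16.6 to 21.3). The exception was Pik3c3, which lay above it on 14 arrays.

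Autophagy encloses cytoplasm and organelles in a double membrane and delivers them to the lysosome. A kinase complex around Ulk1 starts the process, a lipid kinase complex around Becn1 marks the growing membrane, and conjugation enzymes attach LC3 and GABARAP proteins to it. Cargo receptors bind these proteins, mitophagy receptors mark mitochondria for removal, and fusion and fission proteins set the shape of the mitochondrial network. In mouse hematopoietic stem cells (HSC), loss of autophagy is known to leave cells with more mitochondria and an impaired capacity to rebuild blood.

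The arrays held 4 groups of HSC and 2 of common lymphoid progenitors (CLP), which give rise to lymphocytes, all sorted from bone marrow of C57Bl6 mice labelled female. Young HSC (3 arrays) came from wild-type mice of 9 to 12 weeks and old HSC (3 arrays) from wild-type mice of 24 months. The other HSC came from mice of 32 weeks, 3 arrays of Polgtm1Lrsn+/+ (wild type) and 3 of Polgtm1Lrsn-/- (mutator), whose mitochondrial DNA polymerase lacks proofreading in every tissue, so that mutations in mitochondrial DNA build up. The CLP came from wild-type mice of 8 to 12 weeks and were sorted as Ly6D+ (2 arrays) or Ly6D- (2 arrays), Ly6D marking the cells directed to the B lineage. The study asked whether HSC of mutator mice resemble normally aged HSC. Replicates are labelled biological, but the labels do not say how many mice gave cells to a sample, so the p-values measure the spread between these samples.

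Several facts about the arrays bear on the members. Xist, made in female cells, read at most 16.8 on 5 arrays (all 4 CLP arrays and 32-week wild-type replicate 3) and at least 3507 on the other 11, although all samples are labelled female. The Y-linked Eif2s3y read 423 to 758 on those 5 arrays. RNA quality was read from actin, as log2 of its 3 prime over its 5 prime signal, where higher means less signal from the 5 prime end. This actin ratio spanned 2.39 to 2.61 on young arrays, 2.20 to 2.27 on old arrays, 4.24 to 5.26 on 32-week wild-type arrays and 4.74 to 5.25 on mutator arrays. It spanned 2.51 to 3.85 on Ly6D+ and 2.11 to 2.52 on Ly6D- CLP arrays. Spiked control transcripts were high on 6 arrays, replicate 1 of mutator and of 32-week wild-type HSC and all 4 CLP arrays. Markers of each sort followed the labels: the HSC markers summed to 6596 or more on every HSC array and to at most 931 on CLP arrays. Of the HSC markers, Mecom and Fgd5 in Ly6D+ CLP and Procr in Ly6D- CLP were at background on both arrays of the group. Polg read 100.3 ± 30.6 (SD, n = 3) in mutator and 143 ± 26.4 (n = 3) in 32-week wild-type HSC. No transcript level is given for the allele, so these values do not check the genotype labels.

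Promoters are shown here for the members on which the comparisons below turn, Gabarapl1, Bnip3, Lamp1 and Lamp2, as the 250 bases before the annotated start, 5′ to 3′ on the strand of the gene, from RefSeq on GRCm38.p6. Capitals mark CACGTG, the core letters of the element bound by TFEB and related factors of lysosomal genes.
Gabarapl1, chr6:129532942-129533191, plus strand: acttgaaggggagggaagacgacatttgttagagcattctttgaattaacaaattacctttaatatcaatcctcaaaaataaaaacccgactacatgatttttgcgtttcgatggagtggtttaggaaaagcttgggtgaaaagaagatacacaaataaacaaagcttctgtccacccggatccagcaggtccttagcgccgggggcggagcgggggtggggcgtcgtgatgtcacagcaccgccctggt
Bnip3, chr7:138909507-138909756, minus strand: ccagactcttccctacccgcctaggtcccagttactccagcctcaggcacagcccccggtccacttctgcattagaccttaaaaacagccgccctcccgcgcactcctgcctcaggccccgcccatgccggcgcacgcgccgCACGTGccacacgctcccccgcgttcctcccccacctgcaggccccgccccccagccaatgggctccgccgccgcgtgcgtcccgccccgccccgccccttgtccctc
Lamp1, chr8:13158911-13159160, plus strand: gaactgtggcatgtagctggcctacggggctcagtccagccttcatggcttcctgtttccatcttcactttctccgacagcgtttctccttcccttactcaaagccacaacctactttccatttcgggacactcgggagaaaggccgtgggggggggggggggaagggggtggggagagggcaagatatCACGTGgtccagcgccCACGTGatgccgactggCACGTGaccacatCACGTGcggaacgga
Lamp2, chrX:38456461-38456710, minus strand: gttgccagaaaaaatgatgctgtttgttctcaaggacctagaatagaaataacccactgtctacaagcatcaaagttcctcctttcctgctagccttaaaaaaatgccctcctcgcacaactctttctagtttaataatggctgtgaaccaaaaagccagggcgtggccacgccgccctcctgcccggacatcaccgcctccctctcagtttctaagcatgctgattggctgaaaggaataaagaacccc

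The letters CACGTG, which read the same on both strands, occurred 4 times in the Lamp1 promoter, with the site beginning 61, 45, 28 and 15 bases before the start, and once in that of Bnip3, 108 bases before it. Neither Gabarapl1 nor Lamp2 held them in this window. The windows searched were the 250 bases before each annotated start, and 29 of the members had at least 1, with 36 windows in all. CACGTG was present in 5 of these 36 (13.9%), those of Atg3, Atg5, Atg7, Bnip3 and Lamp1, against 6.02% of all 32851 RefSeq windows. The longer form GTCACGTG, which contains CACGTG, was in 3 of 36 (Atg3, Atg7 and Lamp1) against 1.85% of all. GTAAACA, a form of the core letters of FOXO sites, searched on both strands like the others, was in 0 of 36 member windows and 3.17% of all. Other forms of that core were not searched.

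Levels of the members are given as probe set intensities on a linear scale, and the level of one probe set is not set against another's. The median member, on the log2(intensity + 16) scale, read 8.78 to 8.87 on the young, 8.76 to 8.91 on the old, 8.05 to 8.71 on the 32-week wild-type and 8.23 to 8.50 on the mutator arrays. On Ly6D- CLP arrays it read 8.43 to 8.51 and on Ly6D+ CLP arrays 8.33 to 8.57.

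The initiation complex is the first step. Ulk1, the initiating kinase, had group means from 334 ± 93.7 (SD, n = 3) in mutator HSC to 546 ± 193 (n = 2) in Ly6D- CLP, and its related kinase Ulk2 from 91.0 ± 88.0 (n = 2) in Ly6D- CLP to 237 ± 34.6 (n = 3) in old HSC. For Ulk2 the Ly6D- arrays differed widely, at 153 and 28.8. Atg13, which links the kinase to its scaffold, was lowest in mutator HSC (109 ± 26.1) and highest in Ly6D+ CLP (224 ± 22.4, n = 2). The scaffold Rb1cc1 ran the other way, from 594 ± 96.0 in old HSC to 122 ± 90.0 in Ly6D+ CLP. Its further probe set above background read 50.3, 118 and 79.6 in old HSC and 56.2 and 205 in Ly6D+ CLP, which overlap.

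In the lipid kinase complex, the regulatory subunit Becn1 was at 886 ± 41.4 (SD, n = 3) in young, 929 ± 65.1 in old, 462 ± 199 in 32-week wild-type and 647 ± 75.2 in mutator HSC, and at 873 ± 11.8 and 969 ± 254 (n = 2) in Ly6D- and Ly6D+ CLP. The catalytic subunit Pik3c3 lay at 3 levels that did not overlap, 177 to 231 on the 6 young and old arrays, 102 to 135 on the 4 CLP arrays and 11.6 to 73.2 on the 6 arrays of 32 weeks. Atg14, which directs the complex to autophagy, ranged from 26.9 to 259 within 32-week wild-type HSC alone, which spans the young arrays (204 to 254), and read 309.8 and 437 in Ly6D- CLP. Of the membrane proteins and lipid-binding effectors, Atg9a had group means from 72.1 ± 11.9 (mutator) to 146 ± 33.6 (old), Wipi1 from 74.5 ± 15.5 (Ly6D- CLP) to 109 ± 5.81 (old) and Wipi2 from 258 ± 18.0 (32-week wild type) to 744 ± 140.4 (Ly6D+ CLP).

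The conjugation enzymes process LC3 proteins and load them on membranes. Of these, Atg3 read 616 ± 60.6 and 593 ± 49.4, Atg4b 297 ± 22.1 and 288 ± 45.3, and Atg7 151 ± 18.7 and 154 ± 20.6 in young and old HSC (SD, n = 3). Atg5 ranged from 90.8 ± 9.35 in old HSC to 143 ± 65.9 in Ly6D+ CLP, and Atg10 from 69.5 ± 42.8 in Ly6D+ CLP to 191 ± 53.7 in old HSC. Atg12, the ubiquitin-like protein joined to Atg5, was at 623 ± 108 in young, 751 ± 15.0 in old, 324 ± 154 in 32-week wild-type and 389 ± 129 in mutator HSC. Atg16l1, which places the conjugate on the membrane, averaged 245 ± 15.8 in young HSC, 200.2 ± 32.8 in old HSC and 488 ± 23.7 (n = 2) in Ly6D- CLP.

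The LC3 and GABARAP proteins coat the autophagosome. The plot of intensity per array shows Gabarapl1 highest on the old and lowest on the CLP arrays, with no old array overlapping a young one and no young array overlapping any array of the other groups.

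**Figure D1:**
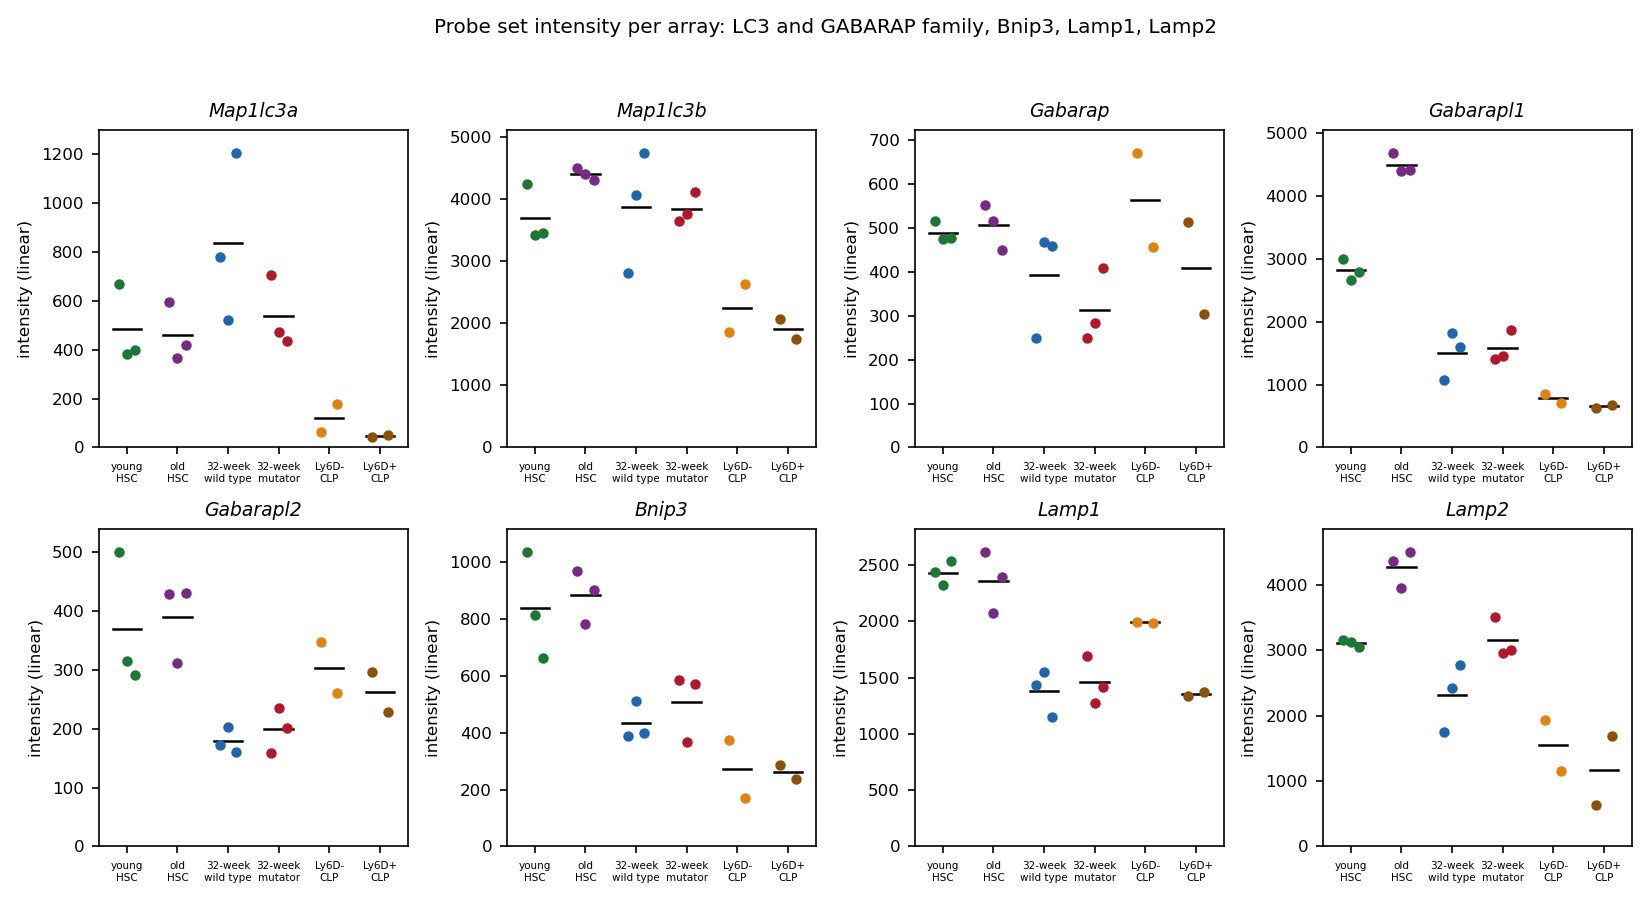
Probe set intensity (linear scale) on each array for the 5 LC3 and GABARAP genes, Bnip3, Lamp1 and Lamp2, with a point per array and a line at the mean of each of the 6 groups. Gabarapl1 reads 4394 to 4681 on the old arrays, 2664 to 2994 on the young arrays and 632 to 856 on the CLP arrays.

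The old against young comparison addresses ageing in wild-type mice. None of the 35 members passed the test (limma, Benjamini-Hochberg adjusted p under 0.05 over 13481 genes), against 176 genes or 1.31% of all genes tested. Gabarapl1, a GABARAP protein of autophagosome growth, read 4681, 4394 and 4416 on the old and 2994, 2664 and 2787 on the young arrays. Every old array was above every young array, by 1.60-fold on average, a log2 change of 0.67 ± 0.194 (SE, n = 3 and 3) with an adjusted p of 0.172. Its further probe set gave 0.87.

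Lamp2, a lysosomal membrane protein needed for fusion of autophagosomes with lysosomes, read 4366, 3959 and 4506 on the old and 3163, 3125 and 3047 on the young arrays. The groups did not overlap, and the log2 change was 0.46 ± 0.171 (adjusted p 0.358), with 0.57, 0.69 and 0.87 from its 3 further probe sets. Pink1, the kinase that marks damaged mitochondria, read 895, 822 and 891 on the old and 775, 591 and 589 on the young arrays, a log2 change of 0.42 ± 0.234 (adjusted p 0.766). These arrays too lay apart. On the further probe set of Pink1 they overlapped, at 962, 862 and 771 on the old and 774, 662 and 680 on the young arrays.

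Over the list, 25 members had a positive and 10 a negative change, against 6501 and 6980 of all genes tested. The median log2 change of the members was 0.10 against -0.01 over all genes tested. That median was 0.04 without old replicate 1 and 0.16 without old replicate 2. With the actin ratio as a covariate, which does not overlap between old and young arrays, it was 0.05 and 8 members changed sign. On the brightest probe sets the old arrays lay wholly above the young for 10 members and wholly below for 0. Of all 13481 genes, 1882 (14.0%) lay wholly above and 1782 wholly below. The 10 were Gabarapl1, Lamp2, Pink1, Opa1, Map1lc3b, Sqstm1, Wipi1, Fundc1, Atg12 and Nbr1. At an unadjusted p under 0.05 there were 2 members and 1217 genes. Sqstm1, the cargo receptor p62, read 374, 393 and 364 in old and 294, 254 and 300.3 in young HSC (log2 change 0.40 ± 0.300, and 0.09 with that covariate). Opa1, the fusion GTPase of the inner mitochondrial membrane, read 961, 1030.1 and 864 in old and 639, 781 and 818 in young HSC (0.35 ± 0.217, and 0.15 with the covariate). The fusion genes Mfn1 and Mfn2 (0.04 ± 0.173 and -0.04 ± 0.146) and the fission gene Fis1 (-0.15 ± 0.229) had changes smaller than their errors.

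The call for Gabarapl1 depended on the fit. Fitted on the 6 young and old arrays alone, it passed (adjusted p 0.00582), as did Lamp2 (0.0270), among 994 genes in place of 176. With array weights, 1879 genes passed, among them Gabarapl1, Lamp2, Pink1 and Map1lc3b. All 8 measured neutrophil markers had negative changes, their summed intensity being 171 to 1555 on the old and 1320 to 5718 on the young arrays, and so had all 5 erythroid and 7 macrophage markers tested. All 7 HSC markers had positive changes, 3 of them past the threshold. Of the 6 megakaryocyte markers 4 had positive and 2 negative changes, with 0 past the threshold. Their sums were 3749.7 to 5497 on the old and 2087 to 2617 on the young arrays. The part of these markers in the values above was not tested. In RNA of pooled sorted cells, a smaller share of a cell type and less transcript per cell cannot be told apart.

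Mutator HSC were compared with 32-week wild-type HSC to show the effect of the genotype at a matched age. None of the 35 members passed the test and neither did any of the 13481 genes (0%), with 984 genes and 2 members at an unadjusted p under 0.05. Lamp2 read 3518, 2967 and 3002 on the mutator and 1748, 2422 and 2783 on the wild-type arrays. It was the only member whose mutator arrays all lay above the wild-type arrays, which held for 3.11% of all genes, and its log2 change was 0.47 ± 0.171 (SE, n = 3 and 3, limma adjusted p 0.618). Its further probe sets above background gave -0.54 and 0.77, which differ in sign. Lamp2 lies on the X chromosome, and the wild-type array with low Xist read 2783, the highest of the 3.

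Becn1 read 571, 649 and 721 on the mutator and 300.2, 685 and 402 on the wild-type arrays, which overlapped (log2 change 0.55 ± 0.238, adjusted p 0.668). Without wild-type replicate 2 it passed (0.86, adjusted p 0.0370), among 222 genes in place of 0. Wipi2, an effector that binds the lipid made by Pik3c3, read 549.7, 327 and 241 against 244, 252 and 278 (0.43 ± 0.235, adjusted p 0.752), and its groups overlapped, with 2 mutator arrays above and 1 below all 3 of wild type. Each of the 3 values leaned on 1 array: Becn1 was 0.29 and Lamp2 0.28 without wild-type replicate 1, and Wipi2 was 0.12 without mutator replicate 1. The median log2 change of the members was 0.03 and that of all genes -0.00. Gabarapl1 averaged 1576 ± 255 against 1495 ± 388 (SD, log2 change 0.10 ± 0.194), and Map1lc3b, the commonly assayed LC3 protein, 3842 ± 249 against 3873 ± 982 (0.02 ± 0.186). The fission genes Fis1 (-0.25 ± 0.229) and Dnm1l (0.24 ± 0.292), and the mitophagy receptor Bnip3 (0.20 ± 0.219), had changes about the size of their errors. The median standard error of a member was 0.23 log2 units.

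The genotype effect minus the age effect was tested as 1 contrast, since the study set these side by side. It passed for 0 of 35 members, against 69 genes or 0.512% of all. The members of smallest p were Gabarapl1 (-0.58 ± 0.275, adjusted p 0.687), Pink1 (-0.60 ± 0.330, 0.764) and Sqstm1 (-0.73 ± 0.424, 0.782), each with a positive age effect and a smaller or negative genotype effect. With array weights Gabarapl1 (-0.80, adjusted p 0.0370) and Pink1 (-1.11, 0.0229) passed.

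**Figure D2:**
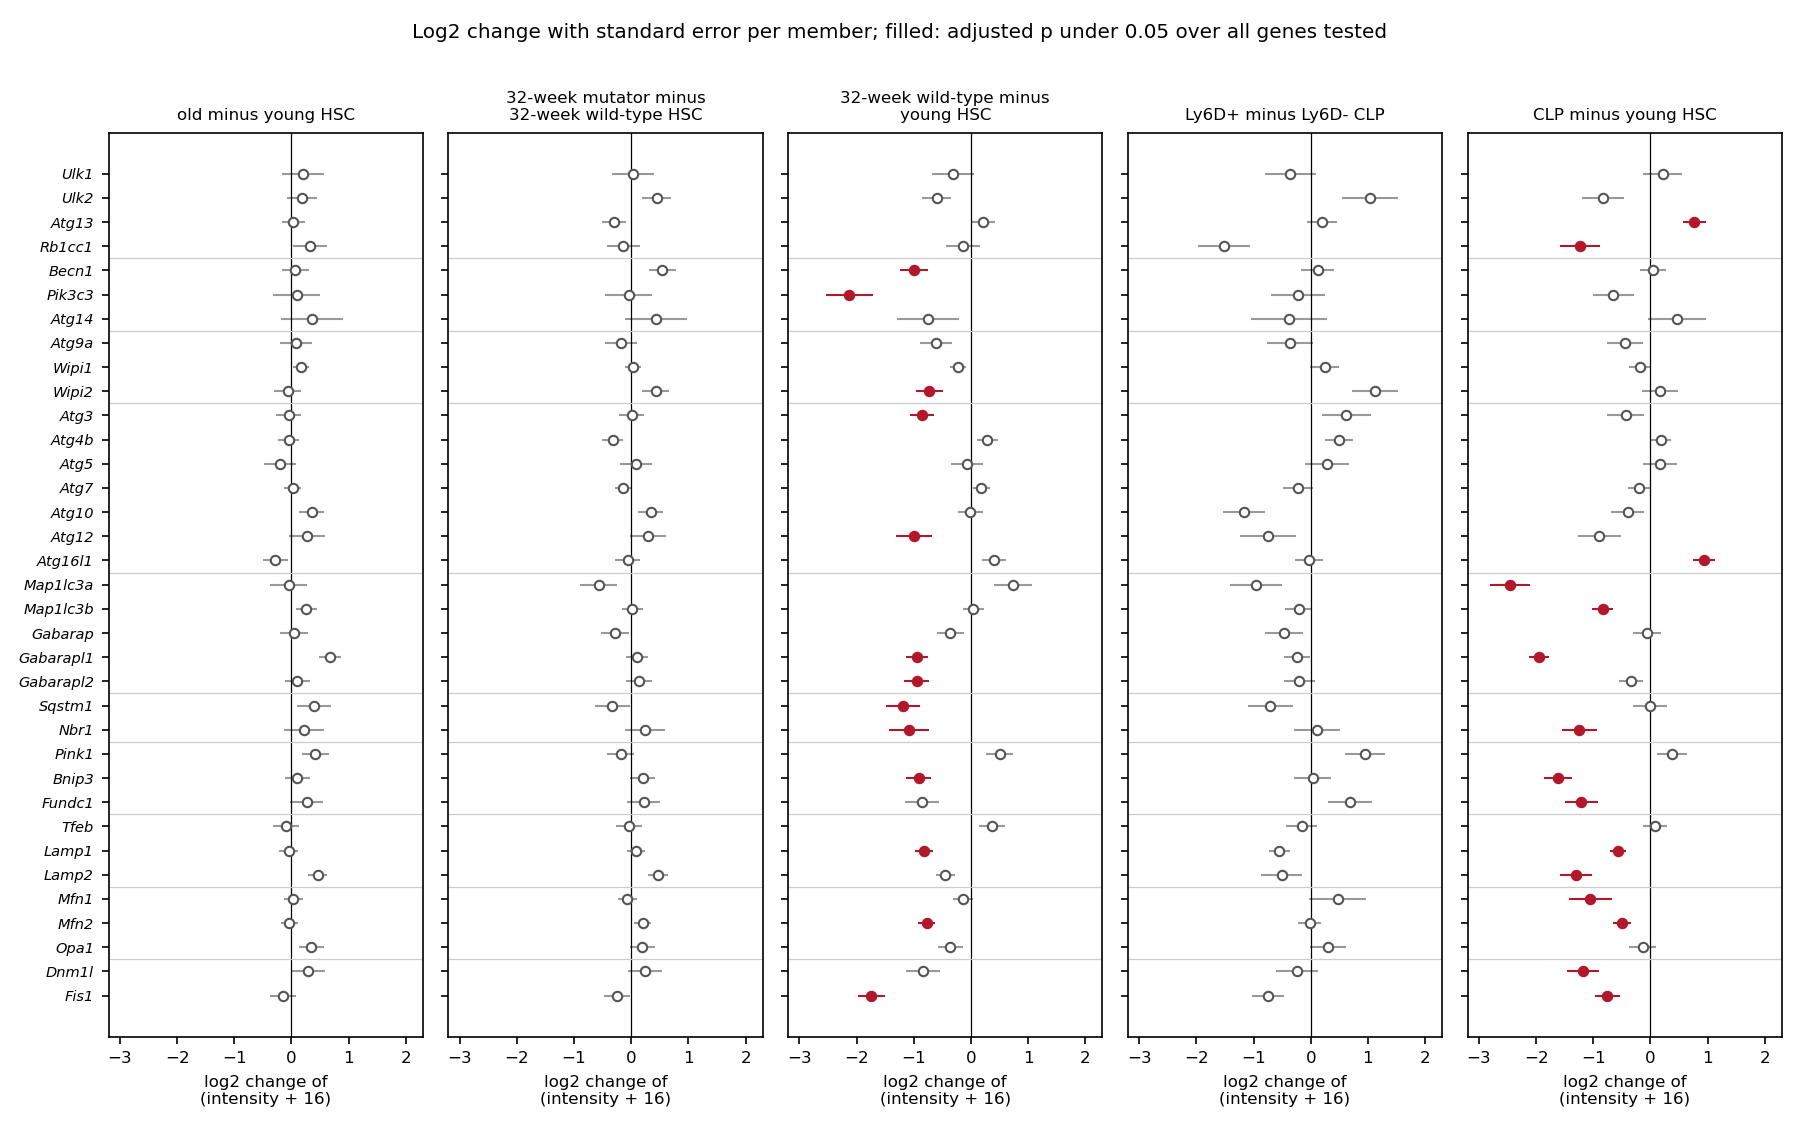
Log2 change of (intensity + 16) for each of the 35 members in 5 comparisons, with bars for the standard error, members in the order of their roles, and filled points for an adjusted p under 0.05 over all genes tested. No point is filled for old against young HSC, mutator against 32-week wild-type HSC or Ly6D+ against Ly6D- CLP, 13 are filled for 32-week wild-type against young HSC and 15 for CLP against young HSC.

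The 32-week wild-type HSC were set against young HSC as wild-type HSC of 2 ages. Every role from the lipid kinase complex onward had at least 1 member that was lower at 32 weeks. In all, 13 of 35 members passed as lower, against 17.7% of all genes, and 0 as higher, against 6.42%. The median log2 change of the members was -0.60 against -0.04 over all genes, and -0.26 without wild-type replicate 1. Among the 11257 genes above background on all 12 HSC arrays, which include 34 of the members, 19.9% were lower and 7.55% higher, with a median of -0.10. The 2 groups also differed in RNA quality, with log2 actin ratios of 4.24 to 5.26 at 32 weeks and 2.39 to 2.61 in young HSC without overlap, so age and RNA quality cannot be told apart here.

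Fis1, a fission factor of the outer mitochondrial membrane, read 258, 244 and 234 at 32 weeks and 1134, 752 and 738 in young HSC. The groups did not overlap, with a ratio of 0.299 (log2 change -1.74 ± 0.229, SE, n = 3 and 3, limma adjusted p 0.000626). The further probe set of Fis1 showed a smaller change, also without overlap, at 321, 203 and 241 against 582, 358 and 353. Pik3c3 read 11.6, 67.0 and 34.4 against 201, 214 and 177 (-2.13 ± 0.411, adjusted p 0.00397), and its lowest value was under background. Mfn2, a fusion GTPase of the outer membrane, read 283, 233 and 221 against 452, 409 and 431 (-0.78 ± 0.146, adjusted p 0.00345).

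Of the LC3 and GABARAP family, 2 of 5 were lower. Gabarapl1 read 1065, 1819 and 1602 against 2994, 2664 and 2787 (-0.94 ± 0.194, adjusted p 0.00566) and Gabarapl2 173, 203 and 159.8 against 501, 315 and 291 (-0.95 ± 0.224, adjusted p 0.0107). Map1lc3b did not pass (0.04 ± 0.186), and its further probe sets gave -0.37, 1.40 and 0.60. Both cargo receptors measured among the members were lower, Sqstm1 at 141, 152 and 68.8 (-1.19 ± 0.300, adjusted p 0.0144) and Nbr1 at 577, 1831 and 1613 against 2285, 2769 and 2657 in young HSC (-1.09 ± 0.349, adjusted p 0.0420). Neither overlapped with young HSC, and for Nbr1 wild-type replicate 1 lay far under the other two, the log2 change being -0.57 without it.

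The mitophagy receptor Bnip3, induced by low oxygen, read 388, 512 and 399 against 1034, 812 and 662 (-0.91 ± 0.219, adjusted p 0.0117). The lysosomal membrane protein Lamp1 read 1438, 1554 and 1148 against 2438, 2326 and 2533 (-0.82 ± 0.163, adjusted p 0.00459). The remaining members that passed were Becn1 (-0.99 ± 0.238), Atg3 (-0.85 ± 0.215), Atg12 (-0.99 ± 0.314) and Wipi2 (-0.73 ± 0.235). None of the 4 initiation genes passed. Among the members that did not pass were Fundc1, an X-linked mitophagy receptor (-0.86 ± 0.291, adjusted p 0.0520), and the fission GTPase Dnm1l (-0.84 ± 0.292, adjusted p 0.0562).

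With the log2 actin ratio as a covariate, 0 of 13481 genes and 0 members passed, 14 of the 35 members changed sign, and the median log2 change of the members moved from -0.60 to 0.10. The ratio does not overlap between these age groups, and the median standard error rose from 0.23 to 0.74. Under it Pik3c3 (0.71), Becn1 (0.67), Bnip3 (0.39), Sqstm1 (1.06), Atg3 (0.68) and Atg12 (0.96) became positive, while Fis1 stayed negative at -0.95 ± 0.772. Of the calls, Wipi2 was lost with any 1 of the 6 arrays left out, Atg12 with 5, Nbr1 with 3, Atg3 with 2, Bnip3 without young replicate 1 and Sqstm1 without young replicate 3. Quantile normalization lost the calls of Mfn2 (log2 change -0.52), Bnip3, Atg3, Atg12, Wipi2 and Nbr1. The mean of all probe sets lost those of Gabarapl2 (-0.55), Atg3 and Wipi2. Fitting only the groups compared lost those of Becn1, Atg12 and Nbr1.

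**Figure D3:**
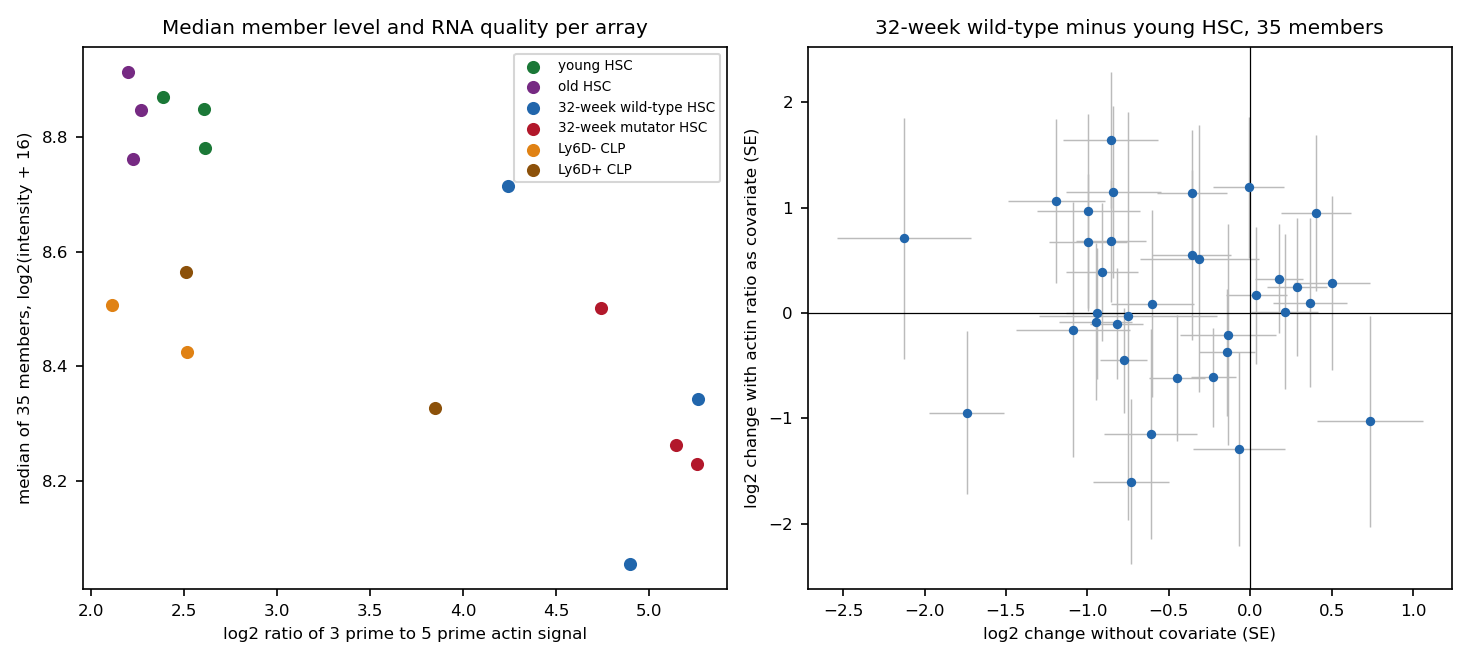
Left, median of the 35 members on the log2(intensity + 16) scale on each of the 16 arrays against log2 of the actin signal at the 3 prime over the 5 prime end, coloured by group. Right, log2 change of each member between 32-week wild-type and young HSC with and without that ratio as a covariate, with standard errors, where 14 of the 35 change sign and the median moves from -0.60 to 0.10.

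CLP were compared with young HSC, taking the mean of both CLP groups, to describe the members at the lymphoid step of wild-type mice of similar age. Here 13 of 35 members were lower, against 18.2% of all 14343 genes tested, and 2 were higher, against 12.5%. The LC3 and GABARAP family, mitophagy receptors, lysosomal membrane proteins and mitochondrial dynamics genes made up 11 of the 13, and Atg13 and Atg16l1 were the 2 that rose. The median log2 change of the members was -0.43 and that of all genes 0.01. It was -0.27 without Ly6D- replicate 2 and -0.20 with the mean of all probe sets. Among the 10584 genes above background on all 16 arrays, 19.9% were lower and 14.0% higher, with a median of -0.03. CLP arrays differed from the young HSC arrays also in their spiked controls and in Xist and Eif2s3y, which cannot be told apart from cell type. All 6 megakaryocyte markers had negative changes, 4 past the threshold, with sums of 159 to 236 in CLP against 2087 to 2617, and their part was not tested.

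Gabarapl1 read 856 and 711 on the Ly6D- and 632 and 682 on the Ly6D+ arrays, against 2994, 2664 and 2787 in young HSC. All 4 CLP arrays were below all young arrays, with a ratio of 0.259 (log2 change -1.95 ± 0.173, SE, n = 4 and 3, limma adjusted p 2.7e-06) and -2.35 in its further probe set. Map1lc3b read 1864, 2626, 2071 and 1754 against 4238, 3416 and 3457 (-0.84 ± 0.180, adjusted p 0.00325). Its further probe sets gave -0.58, 0.81 and 0.86, and the mean of all its probe sets 0.065. Map1lc3a read 61.5, 176, 42.5 and 52.1 against 668, 383 and 398 (-2.46 ± 0.346, adjusted p 0.000152), from a probe set whose type allows hybridisation to other transcripts, and its further probe set gave -0.10. Gabarap (-0.06 ± 0.249) and Gabarapl2 (-0.34 ± 0.210) did not pass.

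**Figure D4:**
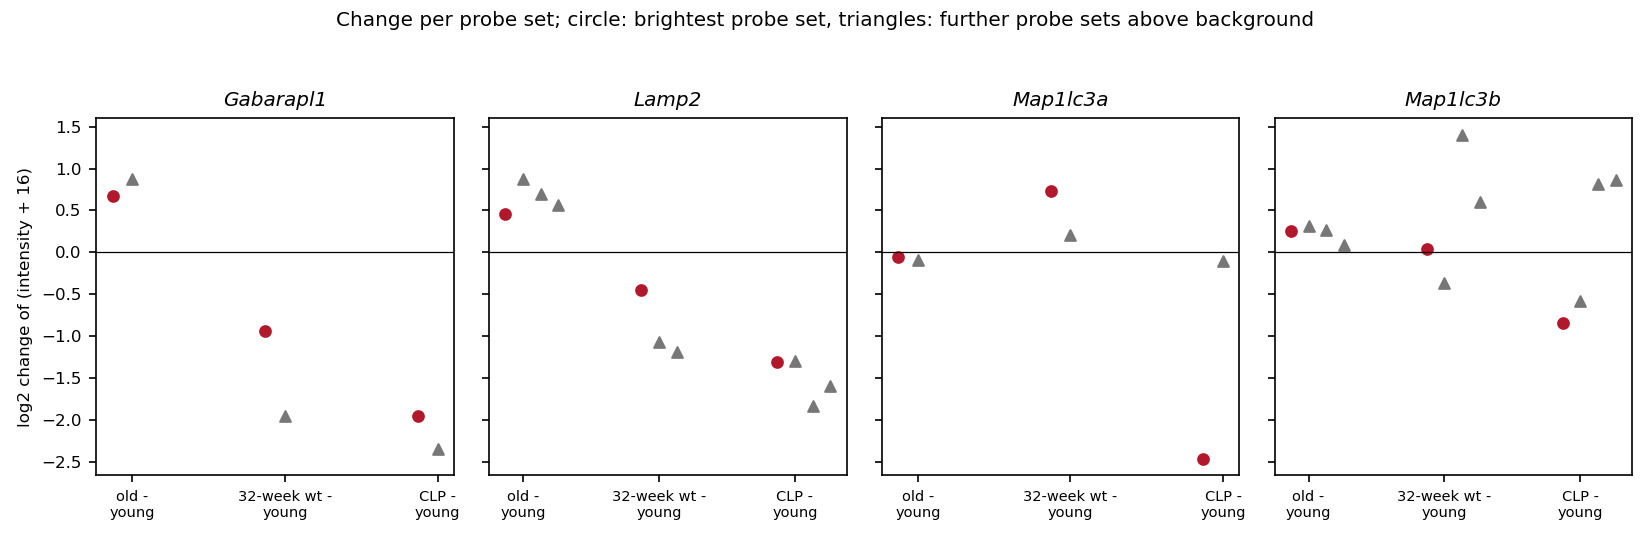
Log2 change of (intensity + 16) for each probe set above background of Gabarapl1, Lamp2, Map1lc3a and Map1lc3b in 3 comparisons that share the young HSC arrays, with a circle for the brightest probe set and triangles for further ones. The probe sets of Gabarapl1 and of Lamp2 lie on the same side of 0 within each comparison, and those of Map1lc3b on both sides for CLP (-0.84 and -0.58 against 0.81 and 0.86).

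Both mitophagy receptors measured among the members were lower in CLP. Bnip3 read 375 and 171 on the Ly6D- and 287 and 236 on the Ly6D+ arrays against 1034, 812 and 662, a ratio of 0.326 (-1.62 ± 0.251, adjusted p 0.00033). Fundc1 read 519, 272, 539.5 and 699 against 1123, 1133 and 1145 (-1.21 ± 0.291, adjusted p 0.00671). Neither overlapped with young HSC, while Pink1 (0.38 ± 0.263, adjusted p 0.308) did. Lamp2 read 1942, 1152, 642 and 1697 against 3163, 3125 and 3047 (-1.30 ± 0.277, adjusted p 0.00310), and all 3 of its further probe sets were negative, at -1.29, -1.59 and -1.83. Lamp1 read 1992, 1989, 1333 and 1370.4 against 2438, 2326 and 2533 (-0.56 ± 0.140, adjusted p 0.00815). Tfeb, a transcription factor of lysosomal genes, did not pass (0.08 ± 0.209).

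The genes of the mitochondrial network moved the same way where they passed. Dnm1l read 844, 496, 579 and 517 against 1163, 1628 and 1373 (-1.19 ± 0.279, adjusted p 0.00575), and Fis1 769, 557, 379.9 and 389 against 1134, 752 and 738, with 1 CLP array inside the young range (-0.75 ± 0.210, adjusted p 0.0154). Mfn1 (-1.05 ± 0.376, adjusted p 0.0490) and Mfn2 (-0.50 ± 0.149, adjusted p 0.0217) were lower, and Opa1 did not pass (-0.14 ± 0.238). The cargo receptor Nbr1 fell from 2571 ± 254 to 1031 ± 69.2 in Ly6D- and 1115 ± 21.4 in Ly6D+ CLP (-1.25 ± 0.305, adjusted p 0.00742), while Sqstm1 did not pass (-0.01 ± 0.302).

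At the early steps the changes went in both directions. Atg16l1 read 505, 471, 448 and 507 in CLP against 262, 230.0 and 243 (0.94 ± 0.189, adjusted p 0.00220). Atg13 read 237, 156, 239.8 and 208 against 97.9, 122 and 127 (0.77 ± 0.200, adjusted p 0.0105), although its further probe set gave 0.051. Rb1cc1 read 264, 418, 185 and 58.2 against 323, 574 and 549.8, which overlap (-1.23 ± 0.348, adjusted p 0.0165), and its further probe set gave 0.47. Becn1 did not pass (0.04 ± 0.222). With 1 array left out at a time, Mfn1 lost its call in 5 of 7 fits (-0.52 without Ly6D- replicate 2 and -1.59 without Ly6D- replicate 1), Mfn2 and Rb1cc1 in 4, Fis1 in 2 and Atg13 in 1, and with the mean of all probe sets Map1lc3b, Dnm1l, Fis1, Rb1cc1 and Mfn2 lost theirs. Over the 12 other settings, that mean among them, Mfn1 lost its call in 7, Mfn2 in 5 and Rb1cc1 in 3. Quantile normalization lost the calls of both Mfn1 and Mfn2.

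The comparisons of old, 32-week wild-type and CLP with young HSC share the 3 young arrays and are given side by side only. Gabarapl1 had log2 changes of 0.67, -0.94 and -1.95 in these 3, Lamp2 0.46, -0.45 and -1.30, Bnip3 0.10, -0.91 and -1.62, Nbr1 0.23, -1.09 and -1.25, and Lamp1 -0.05, -0.82 and -0.56. Ordered by mean level, Gabarapl1 ran from old (4497 ± 160.0) through young (2815 ± 167), mutator (1576 ± 255) and 32-week wild type (1495 ± 388) to Ly6D- (783 ± 102) and Ly6D+ CLP (657 ± 35.1). The mutator and wild-type arrays overlapped, and the Ly6D- and Ly6D+ arrays did not, though their difference did not pass the test.

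Within CLP, Ly6D+ and Ly6D- cells were compared to follow the B lineage step. None of the 35 members passed, against 384 genes or 2.68% of those tested, and 6 members and 1859 of all genes had an unadjusted p under 0.05. Rb1cc1 read 185 and 58.2 on the Ly6D+ and 264 and 418 on the Ly6D- arrays (-1.51 ± 0.456, SE, n = 2 and 2, limma adjusted p 0.119). On its further probe set above background the groups overlapped, at 56.2 and 205 on the Ly6D+ and 110 and 123 on the Ly6D- arrays. Atg10, the E2-like enzyme that joins Atg12 to Atg5, read 99.7 and 39.2 against 233 and 114 (-1.17 ± 0.373, adjusted p 0.146), and Lamp1 1333 and 1370.4 against 1992 and 1989 (-0.55 ± 0.184, adjusted p 0.164). On the brightest probe sets the arrays of the 2 groups lay apart for all 3. Ly6D+ lay wholly below for 7 members in all and wholly above for 5, against 16.3% and 19.0% of all genes. In Wipi2 (1.13 ± 0.405) and Pink1 (0.95 ± 0.344) the Ly6D+ arrays were above both Ly6D- arrays, without passing the test. Without Ly6D+ replicate 1, Rb1cc1 (-2.23) and Atg10 (-1.70) passed, while without Ly6D+ replicate 2 they read -0.79 and -0.63. Without Ly6D- replicate 1 another 5 members passed, Ulk2, Wipi2, Atg3, Pink1 and Mfn1, each with 1 group left with a single array that is assumed to vary like the other groups. Ly6D+ replicate 2 had a log2 actin ratio of 3.85 against 2.11 to 2.52 on the other CLP arrays, and its part in these values was not tested. All 8 neutrophil and 7 macrophage markers tested had negative changes, with neutrophil sums of 1827 to 2373 on the Ly6D+ and 4578 to 7884 on the Ly6D- arrays, and their part was not tested either.

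Most members could be read from more than 1 probe set, 88 probe sets for the 35 members in all, and the direction of further probe sets above background was compared with that of the brightest. In old against young HSC 31 of 37 further probe sets had the same sign, in mutator against 32-week wild-type HSC 16 of 29, in 32-week wild-type against young HSC 22 of 29, in CLP against young HSC 19 of 31 and in Ly6D+ against Ly6D- CLP 22 of 33. Becn1 shows the range at 32 weeks, where its 4 probe sets gave -0.99, -1.93, 0.19 and 0.53 against young HSC.

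The wider pathway, 112 measured genes in 5 lists beside the members, gave the following counts. In old against young HSC 1 of 112 passed, against 1.31% of all genes. This was Vmp1, a membrane protein of the endoplasmic reticulum that autophagosome formation needs. It rose from 2066 ± 189 to 5310 ± 717 (SD, n = 3; log2 change 1.35 ± 0.191, limma adjusted p 0.00382). No gene of the lists passed in mutator against wild-type HSC. At 32 weeks against young HSC 32 were lower and 8 higher, against 17.7% and 6.42% of all genes, and the groups differ in RNA quality as above. Among the lower were Slc25a46, an outer mitochondrial membrane protein (-1.72 ± 0.200), Vcp, an extraction ATPase (-1.29 ± 0.190), and Atp6v1h, a subunit of the lysosomal proton pump (-2.98 ± 0.365), while the mitophagy receptor Phb2 (1.10 ± 0.178) and Lamtor1, an anchor of mTORC1 on lysosomes (0.92 ± 0.155), were higher.

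In CLP against young HSC, 33 of the 112 were lower and 15 higher, against 18.2% and 12.5% of all genes. Of the wider autophagy machinery the SNARE gene Vamp8 (-2.20 ± 0.190), Vmp1 (-1.78 ± 0.211) and the late endosomal GTPase gene Rab7 (-1.60 ± 0.238) were lower and Tecpr1, of autophagosome maturation, was higher (2.09 ± 0.366). In the wider mitophagy list 6 of 15 measured genes were lower and 3 higher. The higher included the mitophagy receptor Phb2 (1.05 ± 0.175) and Fkbp8 (0.91 ± 0.184), and the lower included Mul1 (-1.27 ± 0.337). The Tfeb relatives Tfec, at 276 ± 6.44 (SD, n = 3) in young HSC and at background (10.0 ± 2.61, n = 4) in CLP, and Mitf, at 165 ± 16.3 and 14.6 ± 1.18, were lower (-3.49 ± 0.272 and -2.56 ± 0.361), and such changes to background depend on the pseudocount. Of the nutrient regulators Rptor, the scaffold of mTORC1, was higher (1.42 ± 0.185) and the deacetylase gene Sirt1 lower (-1.51 ± 0.274). Between the CLP groups Foxo1, a transcription factor of B lineage entry, read 2041 ± 378 (n = 2) in Ly6D+ and 332 ± 8.66 in Ly6D- cells (2.55 ± 0.344, adjusted p 0.00116), Rptor was higher (1.36 ± 0.242, adjusted p 0.00951) and Oma1, a protease that cleaves Opa1, was lower (-1.52 ± 0.365, adjusted p 0.0439).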

How the data were processed

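The deposited values are probe set intensities on a linear scale, 45101 per array on 16 arrays. Per the labels, biotinylated cRNA was made from total RNA of 4000 to 7000 cells per sample. How probe sets were summarised, background-corrected and normalised is not given in the sources used here. A small number of arrays limits precision.

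Gene names came from the platform annotation (34958 probe sets with 1 symbol, 932 with several, 9211 with none, 64 controls). Values were transformed to log2(intensity + 16), and a gene was tested if its brightest probe set lay above the 40th percentile on at least 3 of 12 HSC arrays (13481 genes) or 2 of 16 arrays (14343 genes). Linear models per gene came from limma 3.58.1 under R 4.3.3 (lmFit, then eBayes, two-sided, Benjamini-Hochberg over all genes tested, threshold 0.05), the HSC comparisons on 12 arrays and the CLP comparisons on 16. "Higher", "lower", "rose" and "fell" in a comparison mean past that threshold. Errors after log2 changes are standard errors.

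Named are every member past the threshold, else the 3 of smallest p, and up to 4 genes per wider list. Other members are named for levels, for overlap of arrays or as contrasts within a role, chosen after their values were seen. The members and lists were chosen with earlier results of these data known. Tested on simulated data, the old against young fit recovered 45% of log2 changes of 1 and 96% of 2. The CLP against young fit recovered 68% and 94%.

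Alternatives were quantile normalization, median centring, other filters and pseudocounts, the mean of all probe sets, other variance settings, array weights, other sets of arrays, the replicate number as a block and leaving out each array. A block for arrays with high spiked controls, leaving those arrays out, the actin ratio as a covariate and the reading of further probe sets were added after seeing the data. Same-numbered replicates did not deviate together in every pair (correlations of -0.06 to 0.50), so numbers were not taken as pairs.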

Additional observations from a re-analysis of the deposited data

How the results depend on the processing

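In old against young HSC 176 genes and 0 members passed. The count of genes was 1879 with array weights, 994 with only the groups compared, 93 with young replicates 2 and 3 counted as 1 sample (they differed by less than any other pair of replicates, an SD of 0.18 log2 units), 304 with a block for the arrays with high spiked controls and 409 without both arrays with high spiked controls. The members that passed were then 4 with array weights, 2 with only the groups compared, and 1 each with quantile normalization, with that block and without both arrays. With 1 array left out, 88 to 114 genes and 0 members passed. In mutator against wild-type HSC, where none passed, 1 gene passed with the spiked control block, 1 without both arrays and 35 with the actin ratio as covariate, and with 1 array left out 0 to 222 genes and 0 to 1 members did. For the difference of effects (69 genes) the counts were 483 with array weights, 38 with young replicates 2 and 3 as 1, 157 with the spiked control block, 163 without both arrays and 150 with the actin covariate, with 2 members under array weights and 26 to 148 genes and 0 members with 1 array left out. In 32-week wild-type against young HSC 3258 genes and 13 members passed, with 2031 genes when young replicates 2 and 3 counted as 1, 0 genes and 0 members with the actin covariate, and 2043 to 4161 genes and 9 to 17 members with 1 array left out. The calls reversed by the actin covariate were Pik3c3 (0.71), Becn1 (0.67), Bnip3 (0.39), Sqstm1 (1.06), Atg3 (0.68) and Atg12 (0.96). In Ly6D+ against Ly6D- CLP the 384 genes became 105 with array weights and 0 with only the groups compared, and 307 to 752 genes and 0 to 5 members with 1 array left out. In CLP against young HSC no count moved by over 1.5 times, also with 1 array left out (3203 to 4427 genes, 11 to 16 members), and Map1lc3b turned to 0.065 with the mean of all probe sets. The causes of these moves were not tested. With the replicate number as a block, 172 genes passed in old against young HSC, 0 in mutator against wild-type HSC, 76 for the difference, 3395 at 32 weeks, 355 between CLP groups and 4227 in CLP against young HSC, with 0, 0, 0, 14, 0 and 14 members. The pairing check is given with the methods, and the block changed no count by over 1.5 times. Over all alternatives, 725 values of named members kept direction and side of the threshold, 81 lost their call, 13 gained one and 7 reversed. The median of all genes at 32 weeks was -0.13 with median centring and -0.21 with a filter at the 60th percentile.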
